A study of Triticum aestivum with 58 samples.

Results

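The alpha expansin genes EXPA8, EXPA10 and TaEXPA2 of bread wheat were followed in leaf and root tissues. The genes were taken from the study's list of root genes as all entries whose names start with EXPA8, EXPA10 or TaEXPA2, which gave 9 of the 120744 genes in each count table. Each of the 3 names stands for a family of A, B and D homoeologues, the copies of one gene on the A, B and D sub-genomes. EXPA8 comprises TraesCS3A02G165900, TraesCS3B02G199900 and TraesCS3D02G175800, which are written here as EXPA8_3A, EXPA8_3B and EXPA8_3D after their chromosomes. EXPA10 comprises TraesCS2A02G393700, TraesCS2B02G411700 and TraesCS2D02G391600, written EXPA10_2A, EXPA10_2B and EXPA10_2D. TaEXPA2 comprises TraesCS3A02G344800, TraesCS3B02G376800 and TraesCS3D02G338400, written TaEXPA2_3A, TaEXPA2_3B and TaEXPA2_3D. The rule within these families used the names only, and the families themselves were chosen with earlier results of these data known.

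Expansins are small secreted proteins of the plant cell wall. They loosen the bonds between cellulose and other wall polysaccharides without cutting them, so that a wall under turgor pressure can extend. Alpha expansins (EXPA) are the class best known for acid-induced wall extension, and beta expansins (EXPB) form a second class that is numerous in grasses. In roots, expansins are known from the elongation zone and from growing root hairs, and in leaves from the growing base of the blade. The study's list describes the members as expansin-A8, expansin-A10 and expansin-A2, and none of the files used here assigns them to a cell type.

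The study grew seedlings of spring wheat cultivars released in Pakistan over more than a century in peat moss, without treatment, and all groups shared these optimum growth conditions. Poly(A) RNA of leaf and root was sequenced in single-end libraries. The tables hold 163 libraries of 30 cultivars, and the results below use the 66 leaf and 69 root libraries of the 24 cultivars that the study lists, with 3 replicate libraries for 19 cultivars in leaf and for 21 in root, 2 for 4 in leaf and for 3 in root, and 1 for Chakwal-97 in leaf. The replicates are called biological, but no source used here says which plants were pooled or shared between tissues, so p-values measure the spread between these libraries only.

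Reads counted per library ranged from 8120220 to 10117977 in leaf (median 9333578) and from 8421545 to 11212584 in root (median 9715375). The tissue labels were checked with markers. The auxin efflux carrier LRA1, a root gene of the PIN2 type, summed over 3 homoeologues to 0 tpm (the deposited level, scaled by gene length and library) in 42 of 66 leaf libraries and at most 0.298 tpm in the others, against a median of 13.7 tpm in root. The LOB-domain gene TaMOR was at 0 in all 66 leaf libraries. The photoperiod gene PpD had a median of 51.0 tpm in leaf and 0.858 tpm in root. The third root marker, the root hair gene RTH3, was present in leaf, with a median of 14.9 tpm (0.105 to 50.1) against 84.4 tpm in root (8.68 to 224), so 3 of the 9 root marker genes were expressed in leaf and 3 were at 0 in every leaf library.

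Cultivar names were checked on 241 genes that were either off (below 0.15 CPM, counts scaled to the library total) or on (above 2 CPM) in nearly every library, the members left out. Of the 69 root libraries, 41 matched a second root library of their name, with at least 97% of these genes in one state in both, and 32 matched a root library of another name. In leaf, 6 of 66 libraries matched one of their own name within the tissue and 53 one of another name. Many leaf libraries, and some root libraries, thus went against their cultivar names. The main comparisons of leaf with root use the names only to sum or average libraries within a tissue. The leaf samples made in this way may mix cultivars, so that n counts names there. The same holds for SDs over cultivars and for tests of copies within a cultivar. Counts of names with a lower leaf mean, fits blocked on the name and comparisons between cultivars rest on the names and are given with this limit.

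EXPA8 was expressed in root and not detected in leaf beyond a single read. EXPA8_3B, the most abundant copy, was counted in all 69 root libraries with 3992 reads in all. Its level was 7.07 ± 2.79 tpm (SD, n = 24 cultivars), from 0.969 tpm in NARC-2009 over a median of 6.72 tpm to 13.5 tpm in Dirk. No read of EXPA8_3B was counted in the 66 leaf libraries, where 3 counts in 1 library would correspond to 0.352 tpm. With 3 counts over all leaf libraries as the floor, its counts per library total were at least 1209-fold higher in root.

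EXPA8_3D had 565 root reads and a level of 1.61 ± 0.94 tpm (SD, n = 24 cultivars), from 0.272 tpm in NARC-2009 to 3.42 tpm in Pothowar-70. It had no leaf read, and on the same floor its root level was at least 171-fold above that of leaf. EXPA8_3A was the scarcest member, with 302 reads in 61 of 69 root libraries and a level of 0.872 ± 0.593 tpm, from 0 in NARC-2009 to 2.39 tpm in Ujala-2016. Its only leaf read lay in the Chakwal-97 library, which gives a root-to-leaf ratio of 274 with an exact 95% interval from 48.9 to 10873 for counting error only. The leaf and root cultivar means of EXPA8_3B and EXPA8_3D did not overlap. Those of EXPA8_3A did, through NARC-2009 at 0 in root.

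EXPA10 was expressed in both tissues and was higher in root for each copy. EXPA10_2A had 10.3 ± 1.62 tpm in root, from 6.26 tpm in Chakwal-86 to 13.1 tpm in Parwaz-94, and 2.03 ± 0.68 tpm in leaf, from 1.17 tpm in Chakwal-86 to 3.83 tpm in Pasban-90 (SD, n = 24 cultivars each). EXPA10_2B had 10.5 ± 2.58 tpm in root, from 3.64 tpm in Pari-73 to 15.6 tpm in C-518, and 1.15 ± 0.85 tpm in leaf, from 0.282 tpm in Pari-73 to 3.17 tpm in Chakwal-50. EXPA10_2D had 5.19 ± 0.82 tpm in root, from 3.38 tpm in Dirk to 6.62 tpm in Rawal-87, and 0.738 ± 0.371 tpm in leaf, from 0.344 tpm in Parwaz-94 to 1.76 tpm in Inquilab-91. Among these 24 cultivars, for each copy of EXPA10 the highest leaf mean lay below the lowest root mean. Together with EXPA8_3B and EXPA8_3D, 5 of the 9 members had leaf means entirely below the root means, while 32.2% of the 70739 genes expressed in either tissue did. These are means over the libraries of a name, and single libraries of EXPA10_2B overlapped. This copy held 60.9% of the 6.84 tpm of EXPA10 in leaf replicate 2 of Maxipak-65. In root replicate 3 of Pari-73 it held 11.5% of 23.9 tpm.

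TaEXPA2 reached the highest levels of the 3 families, and its leaf and root cultivars overlapped. TaEXPA2_3A had 13.4 ± 6.45 tpm in root, from 1.33 tpm in NARC-2009 to 29.8 tpm in C-217, and 7.13 ± 5.71 tpm in leaf, from 0.149 tpm in GA-2002 to 21.6 tpm in Chakwal-50 (SD, n = 24 cultivars each). TaEXPA2_3D had 13.8 ± 6.80 tpm in root, from 2.13 tpm in NARC-2009 to 31.7 tpm in C-217, and 9.91 ± 6.33 tpm in leaf, from 0.580 tpm in GA-2002 to 23.5 tpm in Ujala-2016. TaEXPA2_3B had 8.74 ± 4.80 tpm in root, from 0.263 tpm in NARC-2009 to 19.6 tpm in C-217, and 8.08 ± 6.39 tpm in leaf, from 0 in Chakwal-97 to 26.4 tpm in Chakwal-50. The leaf mean was below the root mean of the same name for TaEXPA2_3A in 20 of 24 names, for TaEXPA2_3D in 16 and for TaEXPA2_3B in 14.

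**Figure D1:**
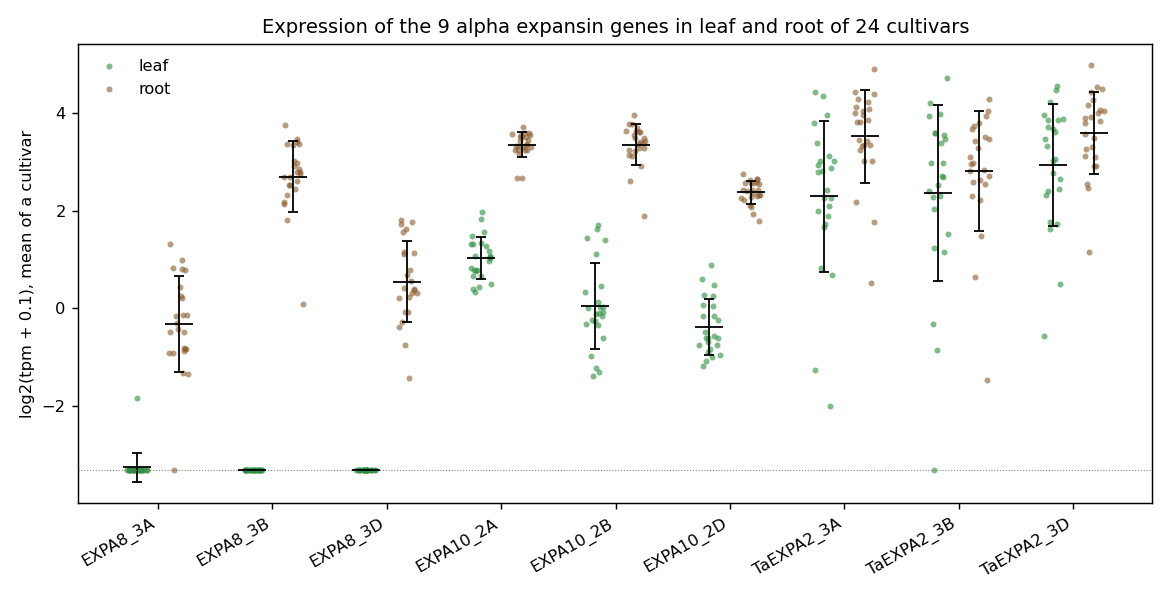
Level of each member as log2(tpm + 0.1) in leaf (green) and root (brown). Each point is the mean of 1 of 24 cultivars, black bars give the mean ± SD over cultivars, and the dotted line marks 0 tpm. The 3 copies of EXPA8 lie on the line in leaf apart from 1 point of EXPA8_3A, the copies of EXPA10 separate by tissue, and those of TaEXPA2 overlap.

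To compare leaf with root, the counts of a cultivar's libraries were added up within each tissue, which gave 24 samples per tissue, and all were fitted with the quasi-likelihood F-test of edgeR to the 62747 genes that passed its filter on low counts. A log2 change below 0 means a lower level in leaf, and an adjusted p under 0.1 counts as a call. In this fit 87.9% of all genes were called, 40.3% with a higher and 47.6% with a lower level in leaf, so a call by itself sets no member apart. Of the 9 members 8 passed the filter, EXPA8_3B and EXPA8_3D only through root, and their fold changes are those given above as lower limits. The 3 copies of EXPA10 fell in leaf, by 1.26 (SE 0.10) for EXPA10_2A, by 2.102 (SE 0.21) for EXPA10_2B and by 1.74 (SE 0.14) for EXPA10_2D on the log2 scale, with edgeR adjusted p-values of 7.67e-16, 7.21e-13 and 8.79e-17. In bulk tissue, fewer cells of a type and less RNA per cell cannot be told apart.

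For TaEXPA2 the direction between tissues differed between the count fit and the tpm values, which differ in scaling and in model. With TMM normalization in edgeR, TaEXPA2_3B was higher in leaf by a log2 change of 1.02 (SE 0.35, adjusted p = 0.00705) and TaEXPA2_3D by 0.65 (SE 0.28, adjusted p = 0.0284), while TaEXPA2_3A, with 0.21 (SE 0.32, adjusted p = 0.541), was not called. With the cultivar name as a block neither call held in edgeR, at 0.69 (adjusted p = 0.1001) for TaEXPA2_3B and 0.43 (adjusted p = 0.172) for TaEXPA2_3D, and the latter was also lost without replicate 2 (adjusted p = 0.211). On tpm values all 3 copies had the opposite sign. In limma's test on log2(tpm + 0.1) the change was -1.23 (adjusted p = 0.00154) for TaEXPA2_3A, -0.67 (adjusted p = 0.0337) for TaEXPA2_3D and -0.45 (adjusted p = 0.322) for TaEXPA2_3B.

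The median change over all genes also moved, from -0.14 in edgeR to -1.19 on log2(tpm + 0.1). Relative to that median, TaEXPA2_3B was at 1.16 in edgeR and 0.74 on log2(tpm + 0.1), TaEXPA2_3D at 0.80 and 0.53, and TaEXPA2_3A at 0.35 and -0.04. The copies of EXPA10 lay below the median under both, EXPA10_2A at -1.11 and -1.13, EXPA10_2B at -1.96 and -2.12 and EXPA10_2D at -1.60 and -1.56. EXPA10 was thus lower in leaf in both, with nearly the same distance from the typical gene. No direction is given for TaEXPA2.

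**Figure D2:**
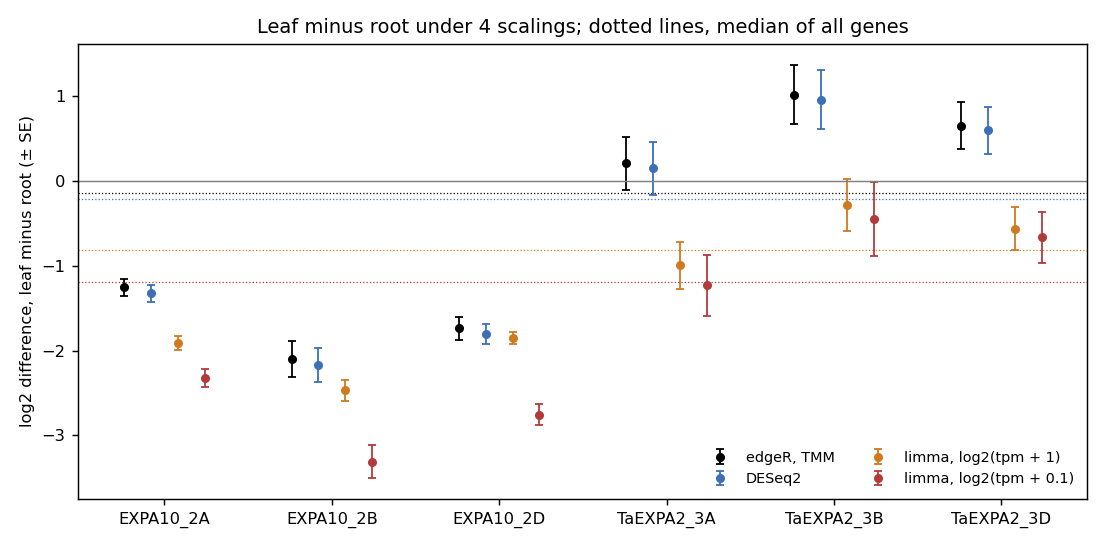
Log2 difference between leaf and root, leaf minus root, for the members of EXPA10 and TaEXPA2 with edgeR, DESeq2 and limma on log2(tpm + 1) and log2(tpm + 0.1). Points give the estimate, bars ± SE (24 samples per tissue), and dotted lines in the same colours the median of all genes under each scaling. EXPA10 lies below its dotted line throughout, and TaEXPA2 lies above 0 with the first pair of scalings and below 0 with the second pair.

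Other cell wall genes of the study's list were compared in the same fit. The list held 10 genes: the beta expansins EXPB1 and EXPB5, DGL1, a subunit of the oligosaccharyltransferase that glycosylates secreted proteins, and RTH3, a COBRA-like protein of the root hair wall known from maize. Of the 6 that passed the filter all 6 were called lower in leaf, where 47.6% of all genes were, with a median log2 change of -1.02 against -0.14 over all genes. They were the copies of DGL1, between -0.95 (DGL1_7A) and -0.75 (DGL1_7B), and those of RTH3, between -1.48 (RTH3_4D) and -1.10 (RTH3_4B). EXPB1 had no read in the 66 leaf libraries, like EXPA8_3B and EXPA8_3D, and EXPB1_2A, EXPB1_2B and EXPB1_2D were at least 118-, 139- and 89.6-fold higher in root. EXPB5_2D had 1 read in all root libraries together and none in leaf.

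Of 15 root hair genes of the list, 9 were tested, 5 were called lower in leaf and 4 were not called, against 87.9% of all genes called and 47.6% called lower, and the median log2 change was -0.45. The respiratory burst oxidase gene RTH5_3B (-1.31) and RTH1-2D (-1.30), an exocyst subunit gene known from maize root hairs, had the most negative changes, while the 3 copies of the NADPH oxidase RHD2 were not called (-0.45, 0.22 and -0.24, adjusted p at least 0.239). The root hair regulator genes TaRSL4_2A and TaRSL4_2D had no leaf read and were at least 78.1- and 123-fold higher in root.

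The 3 families differed in how far replicate libraries of one name spread. In root, EXPA10 summed over its copies to 25.99 ± 3.36 tpm (SD, n = 24 cultivars), and the SD within cultivars was 4.15 tpm. The highest replicate of a cultivar was a median of 1.30-fold and at most 1.67-fold above the lowest. EXPA8 summed to 9.55 ± 4.05 tpm in root, with an SD within cultivars of 3.11 tpm and a median spread of 1.86-fold. TaEXPA2 summed to 35.9 ± 17.7 tpm in root, with an SD within cultivars of 16.3 tpm and a median spread of 1.93-fold, and NARC-2009 alone exceeded 10-fold, at 21.9-fold.

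In leaf, TaEXPA2 summed to 25.1 ± 17.5 tpm (SD, n = 24 cultivars), and the SD of single libraries within cultivars was 24.4 tpm. Averaging alone makes an SD of means over libraries smaller, so neither is read as the larger spread. Single libraries ranged from 0 in replicate 1 of Pasban-90 to 118.6 tpm in replicate 2 of Chakwal-50, or from 0 to 1207 counts. The replicates of Pasban-90 had 0, 42.0 and 0.106 tpm, those of Dharabi-2011 1.08, 68.5 and 23.9 tpm, and those of Chakwal-50 9.94, 118.6 and 81.5 tpm. Of the 23 cultivars with replicates in leaf, 8 spread over more than 10-fold and 18 over more than 2-fold, with a median of 4.67-fold. Only 6 of the 66 leaf libraries matched one of their own name on the on/off genes. The leaf spreads given here, and the SD within cultivars, are thus between libraries of one label. EXPA10 in leaf summed to 3.92 ± 1.49 tpm with an SD within cultivars of 2.53 tpm and a median spread of 2.13-fold, and Chakwal-50, with 0.658, 11.4 and 6.17 tpm, spread most, over 17.4-fold. EXPA10 and TaEXPA2 did not move together over the 66 leaf libraries (Spearman's rho 0.09), and neither followed the library total (rho 0.21 and -0.14).

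Root-type transcripts were compared with TaEXPA2 over the leaf libraries. The summed level of RTH3 went against that of TaEXPA2 (rho -0.53, n = 66 libraries) and that of LRA1, at or near 0 in leaf, went with it (rho 0.33). The sum of the root markers in leaf was almost wholly RTH3, as LRA1 reached at most 0.298 tpm there and TaMOR was at 0. Leaf libraries with a high sum, and so a high level of RTH3, did not share a level of TaEXPA2. Pothowar-70 replicate 2, with the highest sum (50.1 tpm), had 0.604 tpm of TaEXPA2 and Rawal-87 replicate 2 (44.6 tpm) had 0.551 tpm, while Chakwal-86 replicate 3 (47.4 tpm) had 18.2 tpm and NARC-2009 replicate 3 (43.5 tpm) had 16.5 tpm, close to the leaf median of 17.98 tpm. EXPA8 had no read in these libraries. The part of the markers in the spread of TaEXPA2 was not tested.

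In root, members were compared between cultivars on the 69 single libraries, with the spread between replicate libraries as the error. Of all 64317 genes tested 83.6% were called, and 8 of the 9 members were, a count near that background. The edgeR adjusted p-values were 2.22e-05 for TaEXPA2_3B, 3.81e-05 for TaEXPA2_3D, 4.69e-05 for TaEXPA2_3A, 3.98e-05 for EXPA8_3B, 0.000293 for EXPA8_3D, 0.00538 for EXPA8_3A, 0.00203 for EXPA10_2B and 0.00364 for EXPA10_2A. EXPA10_2D, with 0.198, was not called. The calls of EXPA10_2A and EXPA8_3A were lost without replicate 1 (0.218) and without replicate 3 (0.170). The same number of members, 8, was called without NARC-2009, where 80.56% of all genes were called. It was also 8 with the 41 libraries of 16 cultivars whose names matched on the on/off genes (80.98% of all genes). These counts are thus near the background too.

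NARC-2009 had the lowest root mean of EXPA8 and TaEXPA2. Its replicates had 0.603, 2.36 and 0.761 tpm of EXPA8 and 0.458, 10.04 and 0.669 tpm of TaEXPA2. Replicate 1 held 4 counts of each of these families. Its replicates 1 and 3 lay below every other root library for both families, and replicate 2 lay above them. EXPA10 stood at 16.7, 22.4 and 21.2 tpm in NARC-2009 against a median of 25.7 tpm over root libraries, and although replicate 1 was the lowest root library here too, it was lower by a much smaller factor. The library totals, from 9273609 to 9361479 counts, were within the range of the other root libraries. LRA1 was low in the same libraries, at 2.79, 8.74 and 4.63 tpm against the median of 13.7 tpm. TaMOR was low as well, at 0.489, 0.568 and 0.929 tpm against a median of 1.55 tpm. RTH3 was not low, at 96.1, 129 and 107 tpm against a median of 84.4 tpm. The part of these markers in the low expansin values was not tested. Chakwal-86 and Chakwal-50 followed, with root means of 11.7 and 11.3 tpm of TaEXPA2.

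At the upper end in root, C-217 had 61.0, 67.2 and 115 tpm of TaEXPA2, and Dirk 63.2 and 55.5 tpm. All of these libraries were above the highest replicate of NARC-2009, Chakwal-50 and Chakwal-86. Between the extremes the replicates overlapped widely, and Punjab-96, for example, had 26.3, 75.1 and 20.02 tpm. For EXPA8, Dirk (17.5 and 18.6 tpm), Pothowar-70 (13.4, 16.4 and 19.2 tpm) and Parwaz-94 (13.4, 16.7 and 16.1 tpm) were highest, and each of their libraries was above those of NARC-2009, Chakwal-86 and Chakwal-50. For EXPA10, C-518 was highest with 32.0, 33.4 and 34.9 tpm and Chakwal-86 lowest with 20.4, 19.3 and 18.1 tpm. NARC-2009, Dirk and Pari-73, next above Chakwal-86, overlapped its replicates.

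In leaf, 27.2% of the 56665 genes tested on 65 libraries differed between cultivars, and 1 of the 6 members tested did. This was EXPA10_2B (edgeR adjusted p = 0.0377), whose adjusted p rose to 0.262, 0.320 and 0.149 without replicate 1, 2 or 3. The others had adjusted p-values from 0.102 (TaEXPA2_3A) to 0.755 (EXPA10_2D). DESeq2 called 4 of the 6, with 39.7% of all genes called. The cultivar names, which few leaf libraries matched on the on/off genes, also limit this comparison.

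The cultivars had been chosen for their years of release, and a trend per decade was tested on 24 samples per tissue. In root 0 of the 9 members were called with edgeR, and 0 with DESeq2, where edgeR called 2.5% and DESeq2 6.06% of all 67932 genes. At an unadjusted p under 0.05 there were 3 with each tool, the copies of TaEXPA2, with log2 changes per decade of -0.13 (SE 0.05, adjusted p = 0.259) for TaEXPA2_3A, -0.15 (SE 0.07, adjusted p = 0.329) for TaEXPA2_3B and -0.14 (SE 0.05, adjusted p = 0.178) for TaEXPA2_3D. TaEXPA2 also followed the library total in root (rho 0.59, n = 69), and with the mean total count as a covariate, chosen after the data were seen, the slopes were -0.05, -0.07 and -0.06. In leaf 0 of the 6 members tested were called with edgeR (0.655% of all genes) and 0 with DESeq2 (2.09% of all genes). EXPA10_2B had an unadjusted p under 0.05 with each (log2 change per decade 0.16, SE 0.06, adjusted p = 0.300 with edgeR). The slopes in leaf and root were also compared directly, where 0 of the 9 members were called in edgeR (3.11% of all genes), and 2 had an unadjusted p under 0.05. These counts of 0 do not show that trends of the sizes given were absent. The share of all genes with an unadjusted p under 0.05 was not counted, so the counts at that cut set no member apart. The copies of TaEXPA2 followed each other closely over root libraries and are not independent results.

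The copies within a family differed in level. Differences of log2(tpm + 0.1) between 2 copies were tested within cultivars by a two-sided permutation test of signs with 100000 resamples, whose smallest p is 2e-05, and adjusted over 9 pairs in root and 6 in leaf. In root, EXPA8_3B exceeded EXPA8_3A by 3.02 (SE 0.11) and EXPA8_3D by 2.15 (SE 0.11) in each of 24 cultivars, and EXPA8_3D exceeded EXPA8_3A by 0.87 (SE 0.12) in 23 of 24. The B copy thus held 75.1 ± 6.26% of the summed EXPA8 level, from 58.7% in Ujala-2016 to 89.0% in Pari-73, the D copy 16.5 ± 4.71% and the A copy 8.40 ± 3.65%. The gene model of EXPA8_3B is 1219 bp long, those of EXPA8_3A and EXPA8_3D 744 and 756 bp, and the part of this difference in the levels per length was not tested. Before division by length, the root counts were 3992, 302 and 565, in the same order.

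EXPA10_2A and EXPA10_2B did not differ beyond their spread in root, with a difference of -0.0047 (SE 0.10, permutation p adjusted 0.961), while each exceeded EXPA10_2D by 0.97, EXPA10_2A in 24 of 24 cultivars and EXPA10_2B in 23. TaEXPA2_3B was the lowest copy of its family in root in 24 of 24 cultivars, 0.71 (SE 0.08) below TaEXPA2_3A and 0.78 (SE 0.11) below TaEXPA2_3D, and TaEXPA2_3A and TaEXPA2_3D differed by -0.07 (SE 0.05, permutation p adjusted 0.237). For 7 of the 9 pairs in root the permutation p was adjusted to 2.57e-05.

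In leaf the order changed. EXPA10_2A exceeded EXPA10_2B by 0.98 (SE 0.18) in 21 of 24 cultivars (permutation p adjusted 8e-05) and EXPA10_2D by 1.40 (SE 0.10) in 24 of 24 (6e-05), and EXPA10_2B exceeded EXPA10_2D by 0.42 (SE 0.16) in 17 (0.0203, and 0.0920 and 0.0562 without replicate 2 or 3). TaEXPA2_3D was above TaEXPA2_3A by 0.64 (SE 0.10) in 21 of 24 and above TaEXPA2_3B by 0.56 (SE 0.30) in 17 (permutation p adjusted 0.0175, and 0.0601 without replicate 1). Without Chakwal-97, TaEXPA2_3B minus TaEXPA2_3D was -0.29 (permutation p adjusted 0.0267), and it was -0.25 without replicate 2, the number that holds this library. TaEXPA2_3A and TaEXPA2_3B differed by -0.07 (SE 0.30, permutation p adjusted 0.921) over all 24 cultivars and by -0.34 (permutation p adjusted 0.0191) without Chakwal-97, whose leaf library held no read of TaEXPA2_3B.

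The balance between the copies therefore was compared between the tissues as each copy's share of the summed tpm of its family. The share was taken from the mean tpm over a cultivar's libraries in a tissue, so libraries with a high family level weigh most. A scaling factor common to all libraries of a tissue leaves the share as it is. Factors that differ between libraries of the same name can change it. Of 6 shares 4 differed by a two-sided permutation test of the tissue labels with 100000 resamples. EXPA10_2A held 53.9 ± 11.3% in leaf and 39.7 ± 6.37% in root (SD, n = 24 cultivars each, permutation p adjusted 6e-05), and EXPA10_2B 27.3 ± 11.9% in leaf and 40.2 ± 7.09% in root (0.00012). TaEXPA2_3A held 26.3 ± 6.50% in leaf and 37.4 ± 3.05% in root (6e-05), and TaEXPA2_3B 32.2 ± 10.2% in leaf and 23.1 ± 5.11% in root (0.00063). The D copies had close to equal shares, 18.8 ± 5.77% and 20.1 ± 2.88% for EXPA10_2D and 41.4 ± 8.995% and 39.5 ± 5.62% for TaEXPA2_3D (permutation p adjusted 0.379 for each). The same 4 shares passed when leaf and root were exchanged only within a cultivar name. Homoeologues are near-identical, the reads were short and single-end, and reads that fit several copies may have been dropped or placed unevenly, so the shares are those of the reads assigned.

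**Figure D3:**
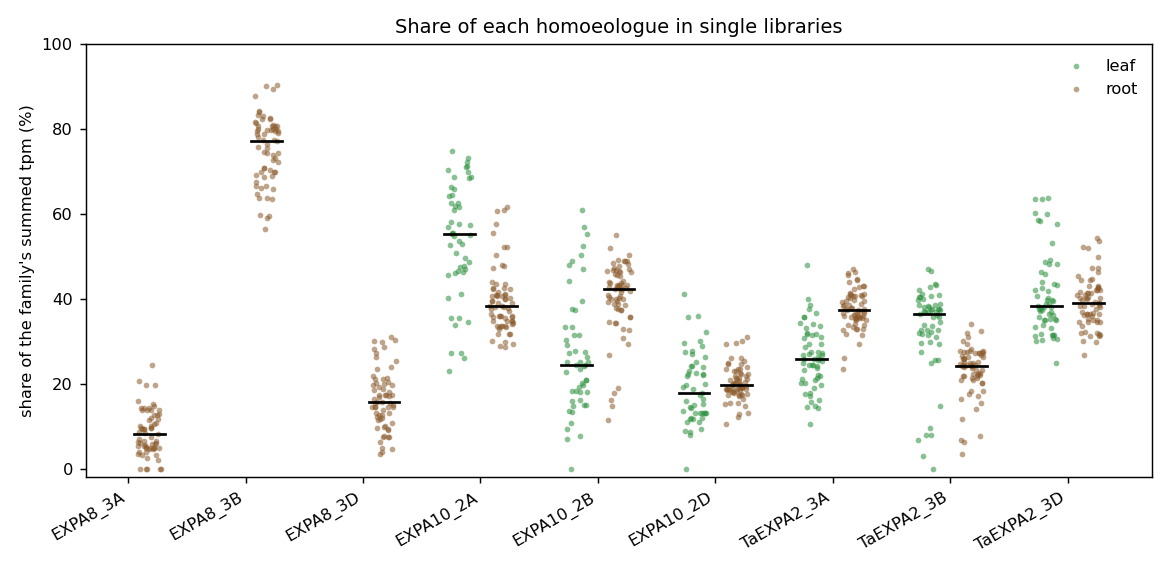
Share of each copy in the summed tpm of its family, in percent, for single libraries with at least 20 counts of the family. Leaf is green and root brown, and black bars are medians over libraries. EXPA8_3B dominates its family in root, and EXPA10_2A and TaEXPA2_3B take a larger share in leaf than in root. Single libraries of several copies, EXPA10_2B and TaEXPA2_3B among them, fall far below the rest.

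Single libraries departed far from these shares. For TaEXPA2_3B in root the median share was 24.2%, and 5 of 67 libraries were below 0.5 times that value, namely Chakwal-50 replicate 3 with 3.33%, Maxipak-65 replicate 3 with 6.28%, NARC-2009 replicate 2 with 6.72%, Seher-2006 replicate 3 with 7.66% and Pothowar-70 replicate 3 with 11.7%. The 40 expressed genes nearest to TaEXPA2_3B on chromosome 3B were at a median log2 ratio between -0.11 and 0.05 in these libraries, so its neighbours were not low with it. In leaf, 7 of 57 libraries were below 0.5 times the median of 36.3%, with 3.01 and 7.99% in replicates 1 and 2 of Pari-73, 7.97 and 6.67% in replicates 1 and 2 of Punjab-96, 9.65% in replicate 1 of Ujala-2016 and 14.8% in replicate 2 of Inquilab-91.

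The seventh leaf library was that of Chakwal-97, with 0 of 210 family counts on TaEXPA2_3B. There the 40 neighbouring genes were at a median log2 ratio of -4.20, and the 1222 expressed genes of chromosome 3B at -4.14. EXPA10_2B was low in 5 of 69 root libraries, replicates 2 and 3 of Pari-73 (14.9 and 11.5%), replicates 2 and 3 of Parwaz-94 (16.1 and 18.9%) and replicate 3 of Pothowar-70 (17.9%), against a median of 42.3%. Replicates of the same name could thus fall on both sides of the cut for a low share. In root, replicate 1 of Parwaz-94 was not among the low libraries. Nor was replicate 1 of Pari-73, but the 3 root libraries of this name each matched another in at least 99.2% of the on/off genes. Their mean of EXPA10_2B, 3.64 tpm, was the lowest root mean of the 24 cultivars. Low shares were not particular to the B copies. By the same cut, EXPA8_3A was low in 12 and EXPA8_3D in 9 of 65 root libraries. In leaf, EXPA10_2B was low in 5, EXPA10_2A in 4 and EXPA10_2D in 3 of 51 libraries, and TaEXPA2_3A in 1 of 57.

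These shares and the levels were set beside the on/off genes. For the share of TaEXPA2_3B, root libraries of one name that matched on the on/off genes differed by a median of 2.72 percentage points (32 pairs), those of one name that did not match by 6.74 (31 pairs), those of other names that matched by 2.24 (31 pairs) and those of other names without a match by 4.58 (2117 pairs). For TaEXPA2_3B in root the share was thus closest where the on/off genes matched. Other copies did not all follow this order. Between root libraries of other names, EXPA10_2B differed by 6.04 points with a match and 6.34 without, EXPA10_2D by 5.07 and 3.51 and EXPA8_3A by 7.02 and 5.08. For the summed level of TaEXPA2 in root, the median log2 difference was 0.66 and 0.62 for libraries of one name with and without a match (33 pairs each), and 0.95 and 0.98 for libraries of other names with and without a match (35 and 2245 pairs). For EXPA8 these values were 0.46 and 0.52 within a name and 0.85 and 0.76 between names.

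NARC-2009 gives an example in root. Its replicates 1 and 3 matched replicates 1 and 2 of Chakwal-50 in at least 99.2% of the on/off genes, with TaEXPA2 at 0.458 and 0.669 tpm in NARC-2009 against 12.8 and 10.4 tpm in Chakwal-50. Replicate 2 of NARC-2009 matched replicate 3 of Chakwal-50 in 100% of these genes, and these were 2 of the 5 root libraries with a low share of TaEXPA2_3B. EXPA8 stood at 0.603 and 0.761 tpm in the former NARC-2009 libraries and at 8.94 and 4.53 tpm in the Chakwal-50 libraries.

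**Figure D4:**
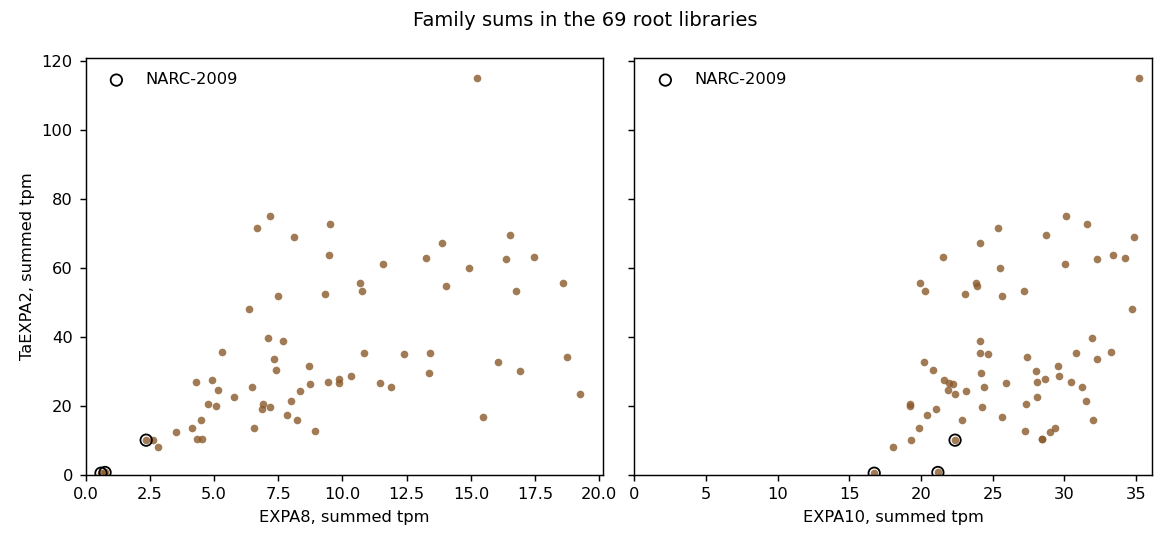
Summed tpm of TaEXPA2 against EXPA8 (left) and EXPA10 (right) in the 69 root libraries, with the 3 libraries of NARC-2009 circled. TaEXPA2 rises with EXPA8 (rho 0.61) more than with EXPA10 (rho 0.39), and replicates 1 and 3 of NARC-2009 lie near 0 on both axes of the left panel only.

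Correlations over libraries, given as a description without a test, placed the members in groups. Libraries share depth and composition, and replicates share a name, so they are not independent points. In root, the copies of TaEXPA2 followed each other closely (rho 0.87 to 0.96, n = 69), those of EXPA8 less so (0.52 to 0.70), and those of EXPA10 weakly (0.17 to 0.36). The families EXPA8 and TaEXPA2 went together (rho 0.61), EXPA10 and TaEXPA2 less (0.39), and EXPA8 and EXPA10 hardly (0.16). In leaf the copies of TaEXPA2 had a rho of 0.81 to 0.96 and those of EXPA10 of 0.48 to 0.63 (n = 66).

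Among the other genes of the study's list, LRA1 was most like EXPA8 and TaEXPA2 in root. For EXPA8 the highest values were those of LRA1_7D (rho 0.76), LRA1_7A (0.75) and LRA1_7B (0.60), where the 99th percentile of all 52033 genes of at least 1 tpm was 0.66. For TaEXPA2 they were LRA1_7D (0.72), LRA1_7A (0.70) and LBD16_4D (0.62), a LOB-domain gene, with a 99th percentile of 0.70. For EXPA10 they were LRA1_7A (0.46), LRA1_7D (0.43) and DGL1_7D (0.41), below the 99th percentile of 0.54. RTH3 went the other way, with a rho of -0.47 with EXPA8 and -0.42 with TaEXPA2.

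Over all genes, which the files give by identifier only, the highest values in root were those of TraesCS1D02G215200 (0.83), TraesCS1A02G212200 (0.82) and TraesCS2A02G148600 (0.81) for EXPA8. For EXPA10 they were TraesCS2B02G301600 (0.71), TraesCS3D02G278500 (0.70) and TraesCS2B02G245600 (0.69), and for TaEXPA2 TraesCS6B02G275700 (0.90), TraesCS7D02G442500 (0.87) and TraesCS7D02G207600 (0.85). In leaf, TaEXPA2 was closest to TraesCS1B02G226000 (0.93), TraesCS3D02G338600 (0.92) and TraesCS7A02G453100 (0.92). TraesCS3D02G338600 is a near neighbour of TaEXPA2_3D, with 1 gene between them in the order of identifiers. Of the listed genes the NADPH oxidase gene RTH5_3A (0.71) and the brassinosteroid receptor gene BRi1_3A (0.59) were among the closest to TaEXPA2 in leaf, and DGL1_7A (0.46) and DGL1_7B (0.45) among the closest to EXPA10. The closest of all genes to EXPA10 in leaf were TraesCS5B02G081800 (0.76), TraesCS5D02G384100 (0.75) and TraesCS5A02G374500 (0.74).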

How the data were processed

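The deposited tables hold counts of reads per gene, which the authors made with featureCounts and did not normalize, and tpm values for the same libraries of leaf and root. The genome build was not named with the files used here, and identifiers give chromosome and gene order only. In all 161 deposited tpm files compared, values equalled tpm computed from the counts and gene lengths within 0.001, and 2 files that end early were not used. Genes of noncoding RNA held 0.0179% of the counts.

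Counts were fitted for all genes with edgeR 4.0.16 in R 4.3.3 (TMM normalization, filterByExpr, quasi-likelihood F-test), with the Benjamini-Hochberg adjustment over all genes tested and the threshold of 0.1 that the study used. Tests of copies and shares used scipy 1.17.1 with numpy 2.4.6, pandas 2.3.3 and Python 3.11.15, and figures matplotlib 3.10.9. A count of 0 allows up to 3 counts, and intervals and floors cover counting error only. The fits were tested on simulated data first.

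The families and lists were chosen with earlier results of these data known, and the members within a family follow from the names. All 9 members are named, with 10 other cell wall and 15 root hair genes of the study's list, and for likeness the 3 genes of highest Spearman's rho per family among listed and among all genes, of which 2 in leaf are not reported here. The single low libraries and the NARC-2009 matches were singled out after their values were seen. A list of further expansins and of chlorophyll-binding markers needed gene descriptions and was not used here.

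Leaf and root samples of one cultivar name share a label, and a fit with the name as a block was therefore run as an alternative to the unpaired fit. Their deviations from the tissue means correlated with a median r of 0.08 over 23668 genes (-0.28 to 0.40), above 0.1 for 12 of 24 names, and 4 of 24 leaf samples correlated best with the root sample of their name.

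The alternatives were DESeq2 1.42.0, limma 3.58.1 on log2 of the tpm values with a pseudocount of 1 or 0.1, other filters, blocks, single replicates left out, all deposited cultivars, name-matched libraries, and, added after the data were seen, leaving out NARC-2009 or the Chakwal-97 leaf library and the total count as a covariate.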

Additional observations from a re-analysis of the deposited data

Results flagged for a closer look

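The share of a copy in its family differed between leaf and root for 4 members, by the permutation test of the tissue labels given in the report. Leaf minus root, the difference was 14.2 percentage points for EXPA10_2A and -12.9 points for EXPA10_2B, on chromosomes 2A and 2B. It was -11.0 points for TaEXPA2_3A and 9.07 points for TaEXPA2_3B, on chromosomes 3A and 3B. The A copy thus held more of EXPA10 and less of TaEXPA2 in leaf than in root, and the B copy the reverse. For the D copies the differences were -1.26 points for EXPA10_2D and 1.95 points for TaEXPA2_3D, which did not pass the test.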

How the results depend on the processing

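Of 7 members called between leaf and root, EXPA8_3B and EXPA8_3D had no leaf read and passed the filter only through root. When at least 10 counts were asked of every sample, fewer members were tested and 1 was called, with 87.6% of all genes called. Without 1 replicate number 5 to 6 were called, with 86.9 to 87.1% of all genes called. TaEXPA2 reversed on tpm values, where limma's change with a pseudocount of 1 was -0.996 for TaEXPA2_3A, -0.28 for TaEXPA2_3B and -0.56 for TaEXPA2_3D, and with a pseudocount of 0.1 it was -1.23, -0.45 and -0.67. The median of all genes moved with it, as given in the report. Between cultivars in root, against 8 members and 83.6% of all genes called, the count was 2 with at least 10 counts (86.4% of the genes tested). It was 7 without any 1 replicate number (55.9 to 68.3%). In leaf 1 member was called, with 27.2% of all genes called. The count was 0 with at least 10 counts (27.18% of the genes tested) and 2 with the replicate block (26.41%). It was 2 with all deposited cultivars (50.51%) and 4 with DESeq2 (39.7%). Without 1 replicate number it was 0 to 1 (7.68 to 12.998%). The share of all genes called thus moved as well, and the cause was not tested.

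With a replicate block on the cultivar name, 6 members were called between leaf and root, where 86.6% of all genes were. With a block on the replicate number, 8 were called between cultivars in root, where 82.9% of all genes were. Of the shares, 4 passed with a block on the cultivar name. Between the tissues the block lost the calls of TaEXPA2_3B and TaEXPA2_3D, added that of EXPA8_3A and changed no other call. EXPA8_3A passed the filter on low counts in that fit only through root, with 1 leaf read against 302 root reads. The calls of EXPA8_3B and EXPA8_3D, which had no leaf read, likewise rest on root. Replicate numbers did not pair libraries within a tissue (median r 0.0096 over 673 pairs in leaf and 0.00088 over 760 in root). No paired analysis was possible for the trend over years because each cultivar has a single year. No member was called in that trend under any alternative. Of the other values for single members and pairs, 468 stayed on their side of the threshold, 12 lost a call and 8 gained one. Differences not called in either setting are among the 468 also where their sign changed, and tests between cultivars have no direction. Depth limits EXPA8_3A most, with a median of 4 counts per root library.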

Other observations

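Libraries of cultivars outside the study's list were not part of the comparisons. For EXPA10_2B the separation of leaf means from root means did not extend to all of them. Its leaf means in Hope, TJ-83 and Sonalika were 6.84, 6.37 and 5.93 tpm, above the lowest root mean of the listed cultivars (3.64 tpm in Pari-73). Those in Gabo, S-24 and Zincol-2016 were 1.07, 0.692 and 2.59 tpm, below it. TaEXPA2_3B was low in Zincol-2016 in both tissues, with 1, 1 and 1 counts in leaf where TaEXPA2_3D had 51, 21 and 9, and with 7, 1 and 24 counts in root where TaEXPA2_3D had 61, 8 and 156. In Gabo root, EXPA8_3B had 0 counts in replicate 2 and 43 and 56 counts in the other replicates, and its 40 nearest expressed genes stood at a median log2 ratio of -4.39 in replicate 2. EXPA8_3A had 1 read each in replicate 1 of Hope and replicate 3 of TJ-83 in leaf, and no other leaf read outside Chakwal-97. Over all 82 leaf libraries this made 3 with a read of EXPA8_3A.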
